A study of Bos taurus with 22 samples.

Results

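CCR3 and FCER1A are receptor genes of eosinophils and basophils, and their transcripts were examined in circulating white blood cells of 22 heifers. They were chosen as 2 of the 27607 Ensembl genes counted, by matching their symbols to the gene identifiers of the counts. Only 1228 symbols were at hand, 1227 of which named a single tested gene, and all came from an annotation restricted to small p-values for Fertile against Sub-Fertile heifers. Both genes were thus selected on the difference between fertility groups, which is given as a description without a test. Every other gene given with values below had its symbol from the same annotation. Both genes (2 of 2) passed the filter on low abundance, which kept 13526 genes with a CPM (the count scaled by the library total) of more than 1 in no fewer than 5 heifers.

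CCR3 is the receptor for eotaxins, the chemokines that draw eosinophils into tissue, and it is also carried by basophils. FCER1A encodes the alpha subunit of the high-affinity receptor for immunoglobulin E (IgE). This subunit binds the antibody, and cross-linking of the receptor by antigen makes basophils and mast cells release their granules. Dendritic cells can carry the same subunit. Eosinophils and basophils are each a minority of blood leukocytes, and are known for their part in responses to parasites and in allergy.

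The heifers formed 4 groups by breed and phenotype, with 1 library of polyadenylated RNA per heifer: 5 Angus Fertile, 7 Angus Sub-Fertile, 5 Holstein Fertile and 5 Holstein Sub-Fertile animals. Blood was drawn at the first artificial insemination, at an average age of 14 months in purebred Angus and 12 months in purebred Holstein heifers. Progesterone inserts had been in place for 7 days in Angus and 5 days in Holstein heifers before removal, so breed, age and synchronization protocol cannot be told apart. Fertile heifers of either breed calved from a pregnancy of the first service. Sub-Fertile Angus heifers were not pregnant after 2 inseminations and time with a bull, and Sub-Fertile Holstein heifers needed at least 4 inseminations or did not conceive, so the label stands for a different history in each breed.

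The total of the counts ranged from 12182400 to 49228035 per heifer, with a median of 23158374. Heifers are numbered from 1 to 22: 1 to 5 are Holstein Sub-Fertile, 6 to 10 Holstein Fertile, 11 to 17 Angus Sub-Fertile and 18 to 22 Angus Fertile. Among the 231 pairings of heifers, 8 stood apart as close pairs, in which each heifer was the nearest of the other across 7746 genes. Heifer 1 was paired with heifer 11, 5 with 6, 7 with 16, 8 with 12, 10 with 18, 13 with 22, 14 with 20 and 15 with 19. The biological coefficient of variation, which is the relative spread between libraries beyond counting, was 0.0378 to 0.0829 within close pairs and 0.0981 to 0.261 in the other 223 pairings. No close pair lay within a group: 6 joined a Fertile to a Sub-Fertile heifer and 4 joined the breeds. Why these heifers were close was not tested. The fits of CCR3 and FCER1A and the correlation between them are also given with the pairs taken into account. The other correlations, the permutation tests by breed and the p-values of other genes take no account of the pairs.

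The CCR3 gene (ENSBTAG00000001338) lies on chromosome 22 from 53135114 to 53136190 of the ARS-UCD1.2 assembly. Its annotated transcript of 1077 bases equals the span of the gene, so the model has no intron. FCER1A (ENSBTAG00000012887) lies on chromosome 3 from 10419633 to 10425891, and its transcript of 1140 bases is spread over a span of 6259 bases. CPM is not scaled for length, so the abundance of CCR3 is not compared with that of FCER1A below, other than as a ratio set side by side between heifers.

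The tissue could be checked against few of the cells' defining markers. Of 13 eosinophil markers, only CCR3 and PTGDR2 had a symbol, and of 12 basophil markers, only FCER1A. The granule proteins EPX and PRG2, the interleukin-5 receptor IL5RA, the IgE receptor subunit MS4A2, the histamine enzyme HDC and the protease CPA3 were not analysed here, and neither were any of the listed mast cell markers. The transcripts are thus described by gene, and the cells that carried them were not identified. In bulk RNA, fewer cells of a type and less RNA per cell cannot be told apart.

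CCR3 was detected in every heifer, from 304 to 2967 counts. In Holstein Sub-Fertile heifers its abundance was 19.6, 38.9, 29.4, 31.1 and 48.5 CPM (heifers 1 to 5). In Holstein Fertile heifers it was 41.7, 35.6, 38.4, 47.5 and 66.3 CPM (heifers 6 to 10). Heifer 1 held the lowest level of all 22 animals and heifer 10 stood well above the other Holstein animals. In Angus Sub-Fertile heifers CCR3 ranged from 25.3 to 52.4 CPM with a median of 34.2 CPM. Angus Fertile heifers had 66.7, 27.2, 60.3, 32.5 and 34.1 CPM (heifers 18 to 22). Heifers 18 and 20 lay above the Angus Sub-Fertile range and the other 3 Angus Fertile animals within it, and all 4 groups overlapped.

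FCER1A was also detected in every heifer, from 90 to 609 counts. In Holstein Sub-Fertile heifers its abundance was 11.7, 10.5, 16.98, 9.77 and 8.77 CPM (heifers 1 to 5). Holstein Fertile heifers had 12.5, 9.44, 8.30, 5.09 and 6.69 CPM (heifers 6 to 10). Heifer 3 held the highest level of all animals and heifer 9 the lowest, and both are Holstein. In Angus Sub-Fertile heifers FCER1A ranged from 7.26 to 12.8 CPM with a median of 10.2 CPM. Angus Fertile heifers had 6.72, 12.0, 9.02, 12.97 and 6.798 CPM (heifers 18 to 22). Heifers 18 and 22 lay below the Angus Sub-Fertile range and heifer 21 just above it, and again all 4 groups overlapped.

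**Figure D1:**
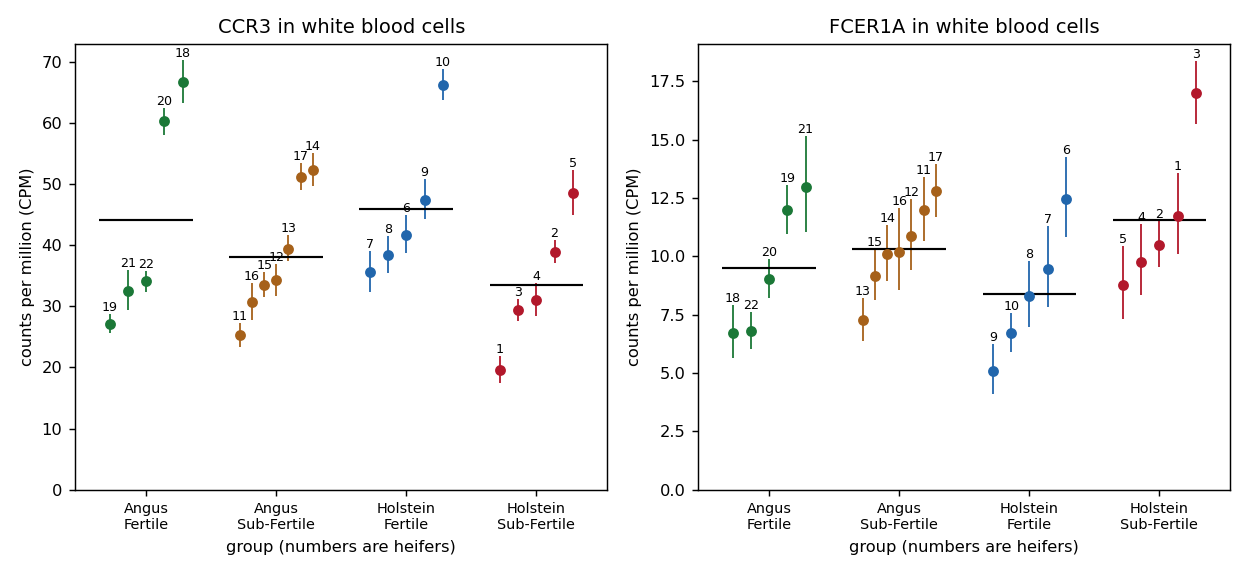
CCR3 and FCER1A transcript abundance in CPM (vertical axes, starting at 0) for each of the 22 heifers, by group. Points are heifers with their numbers, bars are exact 95% binomial intervals of the count within the total counts, and horizontal lines are group means. The points of every group overlap those of the others, and CCR3 of heifers 10 and 18 lies at 66.3 and 66.7 CPM.

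The exact 95% binomial interval of CCR3 was 17.5 to 21.9 CPM in heifer 1 and 63.3 to 70.3 CPM in heifer 18. That of FCER1A was 4.09 to 6.26 CPM in heifer 9 and 15.7 to 18.4 CPM in heifer 3. These intervals cover counting error only, and the extremes of each gene did not overlap. The highest CPM was 3.40 times the lowest for CCR3 and 3.34 times for FCER1A. The standard deviation between heifers of the same group was 0.446 on the log2 scale for CCR3, against a median of 0.0472 from counting alone, a ratio of 9.45. For FCER1A it was 0.368 against 0.0955, a ratio of 3.86. The spread between libraries of a group thus exceeded counting error for both transcripts, and with 1 library per heifer the part of the animal and that of sampling and library preparation cannot be told apart.

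The spread of CCR3 was large for a transcript of its abundance. Its biological coefficient of variation was 0.290, and 95.1% of the 2374 tested genes within 0.5 log2 CPM of it had a lower value, with a median of 0.125. For FCER1A the coefficient was 0.258, which exceeded that of 73.7% of 1466 genes of like abundance, whose median was 0.186.

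Angus and Holstein heifers had similar means of both receptors, within a spread that was much larger than the differences. CCR3 averaged 40.6 ± 13.6 CPM in Angus (SD, n = 12) and 39.7 ± 12.7 CPM in Holstein heifers (SD, n = 10). The log2 fold change of Holstein over Angus was -0.07 (SE 0.181) in the quasi-likelihood test of edgeR, with fertility group in the model (Benjamini-Hochberg adjusted p = 0.894). FCER1A averaged 9.98 ± 2.24 CPM in Angus (SD, n = 12) and 9.97 ± 3.30 CPM in Holstein heifers (SD, n = 10). Its log2 fold change was 0.01 (SE 0.159, edgeR adjusted p = 0.985).

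For breed, 0 of the 2 receptors passed an adjusted p of 0.05 with edgeR, beside 0% of all 13526 genes. At an unadjusted p under 0.05, 0 of the 2 were called against 10.6% of all genes. DESeq2 called 0.0739% of genes at the adjusted and 12.9% at the unadjusted threshold, and neither receptor was among them. In an exact two-sided permutation test of each gene, with breed exchanged within fertility groups over all 199584 regroupings, p was 0.812 for CCR3 and 0.899 for FCER1A. The signs of these breed differences were not stable. With the close pairs as 8 blocks, a fit that leaves out the 6 heifers in no pair, they turned to 0.02 (SE 0.118) for CCR3 and -0.16 (SE 0.135) for FCER1A. In the same 16 heifers without blocks they were -0.06 (SE 0.242) and 0.07 (SE 0.163), and without heifers 10 and 18 they were -0.08 and 0.02. The blocks were formed from abundant genes of these same libraries.

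Between phenotypes, CCR3 was on average higher and FCER1A lower in Fertile heifers, with wide overlap. These values are those that put both genes among the named genes, so they are no evidence of a difference. CCR3 averaged 45.0 ± 14.5 CPM in Fertile (SD, n = 10) and 36.2 ± 10.3 CPM in Sub-Fertile heifers (SD, n = 12), a log2 fold change of 0.32 (SE 0.180). FCER1A averaged 8.94 ± 2.75 CPM in Fertile (SD, n = 10) and 10.8 ± 2.45 CPM in Sub-Fertile heifers (SD, n = 12), a log2 fold change of -0.28 (SE 0.159).

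The phenotype difference was larger in Holstein than in Angus heifers for both receptors, but the test of this interaction found no difference past the threshold. For CCR3 Fertile over Sub-Fertile heifers gave a log2 fold change of 0.46 (SE 0.270) in Holstein and 0.21 (SE 0.247) in Angus heifers. The interaction of breed and fertility was 0.25 on the log2 scale (SE 0.366, edgeR adjusted p = 0.812). For FCER1A the corresponding log2 fold changes were -0.47 (SE 0.235) in Holstein and -0.13 (SE 0.216) in Angus heifers, with an interaction of -0.34 (SE 0.318, edgeR adjusted p = 0.687). Neither interaction was under 0.05, adjusted or not, where edgeR called 0% and 10.4% of all genes, and DESeq2 0% and 12.3%.

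In the fit with close pairs as blocks, the differences between phenotypes were smaller than their errors and had the opposite sign. The blocks were formed from abundant genes of these same libraries, with CCR3 among them and FCER1A not. Small differences and errors within blocks are thus partly set in advance, and the fit is a description. In the 16 heifers of this fit, Fertile over Sub-Fertile heifers gave a log2 fold change of -0.04 (SE 0.0921) for CCR3 and 0.08 (SE 0.105) for FCER1A. The same 16 heifers without blocks gave 0.40 (SE 0.233) and -0.18 (SE 0.157). Without heifers 10 and 18, both Fertile and the highest for CCR3, it was 0.14 (SE 0.174) for CCR3 and -0.19 (SE 0.166) for FCER1A. Of the 6 close pairs that joined phenotypes, CCR3 was higher in the Fertile heifer in 3 and FCER1A in 2, so that FCER1A was higher in the Sub-Fertile heifer in 4. Of the 4 close pairs that joined the breeds, FCER1A was higher in the Angus heifer in 4 and CCR3 in 2. The pairs of heifers 7 and 16 and of heifers 8 and 12 are in both counts, so breed is mixed into the count by phenotype.

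**Figure D2:**
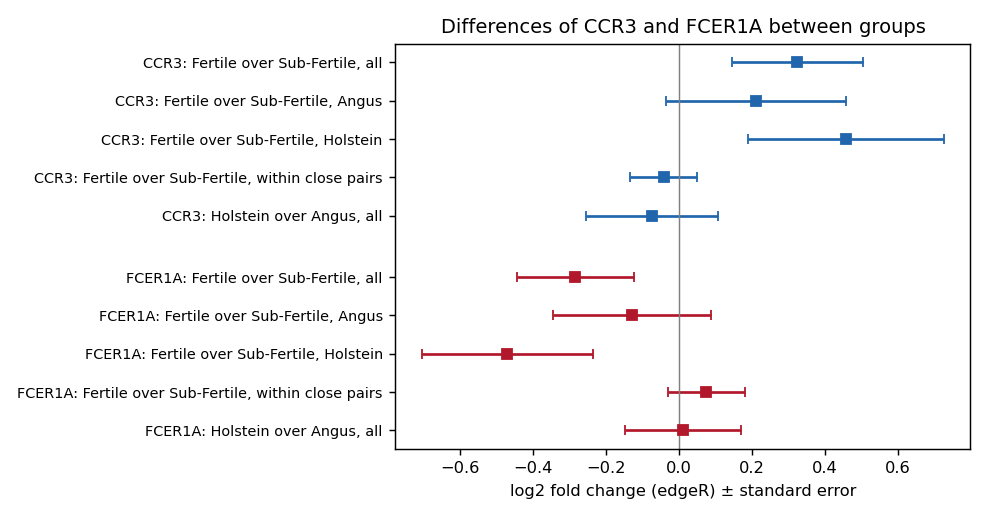
Log2 fold changes (horizontal axis) of CCR3 and FCER1A between phenotypes in all heifers, in each breed and with close pairs as blocks (16 heifers), and between breeds in all heifers. Squares are edgeR estimates and bars are standard errors. With close pairs as blocks the phenotype differences of CCR3 and FCER1A move to -0.04 and 0.08. The blocks were formed from abundant genes of these same libraries.

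By the median, close pairs were more alike than other pairings in both receptors, though not in every pair. Heifers 10 (Holstein Fertile) and 18 (Angus Fertile) had 66.3 and 66.7 CPM of CCR3, the highest levels of their groups, and 6.69 and 6.72 CPM of FCER1A. Heifers 14 and 20, both Angus, followed with 52.4 and 60.3 CPM of CCR3. At the other end, heifers 1 and 11, a Holstein and an Angus animal, had 19.6 and 25.3 CPM of CCR3, the lowest levels of all animals, and 11.7 and 12.0 CPM of FCER1A. The least alike close pair for FCER1A was that of the Holstein heifers 5 and 6, with 8.77 and 12.5 CPM. The pairs of heifers 8 and 12 and of heifers 15 and 19 differed by 0.369 and 0.366 log2 for FCER1A. The median of the other pairings was 0.385.

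Over the 8 close pairs the median absolute log2 difference was 0.209 for CCR3 and 0.129 for FCER1A, and the largest were 0.358 and 0.484. Over the other 223 pairings the medians were 0.462 and 0.385, and the largest were 1.74 and 1.65. The close pairs were found from 7746 abundant genes of the same libraries, so this is a description of the pairs and was not tested.

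**Figure D3:**
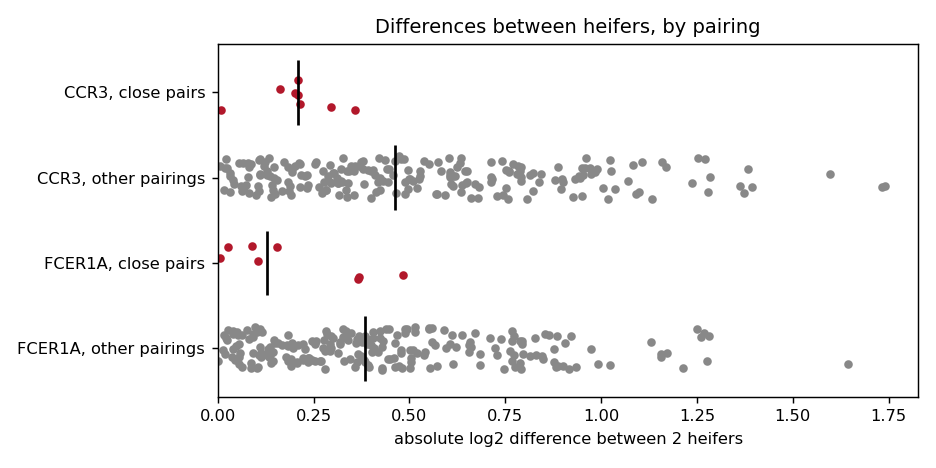
Absolute log2 difference in abundance between 2 heifers (horizontal axis) for CCR3 and FCER1A, for the 8 close pairs and the other 223 pairings. Points are pairings, scattered vertically for visibility, and black lines are medians, which are 0.209 and 0.462 for CCR3 and 0.129 and 0.385 for FCER1A.

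The receptors were also compared with each other across heifers. The number of CCR3 counts per FCER1A count ran from 1.67 in heifer 1 and 1.73 in heifer 3 to 9.91 in heifer 10 and 9.94 in heifer 18, with a median of 3.74. The median ratio was 3.18 in Holstein Sub-Fertile, 4.63 in Holstein Fertile, 3.65 in Angus Sub-Fertile and 5.01 in Angus Fertile heifers, and the ranges of the groups overlapped. Both genes were named through phenotype differences, which have opposite signs, so nothing is read from the ratio by phenotype. Between breeds the mean log2 ratio differed by -0.02 (Holstein minus Angus, exact permutation p = 0.942).

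With group means taken out, the log2 levels of CCR3 and FCER1A had a Pearson's r of -0.422 over 22 heifers (permutation p = 0.0788) and a Spearman's rho of -0.519 (permutation p = 0.0294). This was 1 of 23 relations examined for these receptors, and adjusted over them p was 0.504 and 0.225. Without heifers 5 and 18, which were farthest from the median of CCR3 once group means were taken out, r was -0.297. Within Angus heifers r was -0.378 and within Holstein heifers -0.482 (permutation p = 0.296 and 0.165). With each close pair averaged to a single value r was -0.298 (permutation p = 0.300), and without heifers 10 and 18 it was -0.302 (permutation p = 0.211). The sign was negative in each of these, but the relation did not pass the correction for the relations examined.

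**Figure D4:**
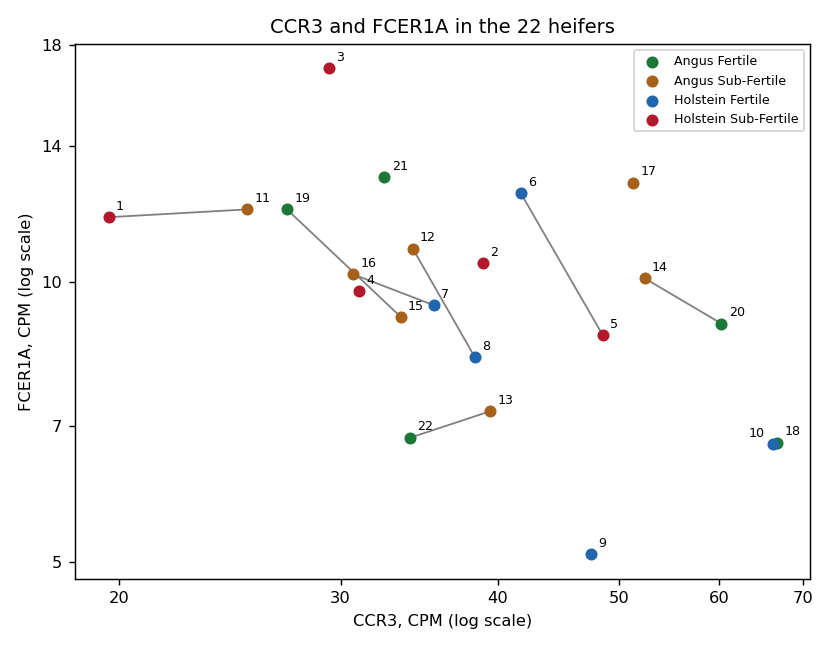
CCR3 (horizontal) against FCER1A (vertical) in CPM, both on log axes, for the 22 heifers, coloured by group and numbered. Grey lines join the 8 close pairs; heifers 10 and 18 lie together at the lower right with 9.91 and 9.94 CCR3 counts per FCER1A count, and heifers 1 and 11 lie at the left.

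Neither receptor was related to sequencing depth past the correction. The r with log2 total counts was 0.301 for CCR3 (permutation p = 0.243) and -0.0807 for FCER1A (permutation p = 0.754), with adjusted p of 0.700 and 0.929. Without heifers 5 and 18, r of CCR3 with depth was 0.544, and without heifers 6 and 9 that of FCER1A was -0.0904.

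PTGDR2, the prostaglandin D2 receptor carried by eosinophils, basophils and type 2 helper T cells, was the only other eosinophil marker with a symbol. It was at 14.97, 20.3, 21.6, 23.6 and 22.7 CPM in Holstein Sub-Fertile heifers and at 24.3, 23.7, 24.2, 23.7 and 28.4 CPM in Holstein Fertile heifers. Angus Sub-Fertile heifers ranged from 17.1 to 36.5 CPM with a median of 28.3 CPM, and Angus Fertile heifers had 25.4, 23.3, 33.8, 37.8 and 38.5 CPM. Angus animals thus reached levels that no Holstein animal had, although the breeds overlapped. PTGDR2 was also named through the difference between phenotypes, so nothing is read from its levels by phenotype. The mean was 29.1 ± 6.70 CPM in Angus (SD, n = 12) and 22.7 ± 3.45 CPM in Holstein heifers (SD, n = 10), a log2 fold change of -0.38 (SE 0.115). In edgeR this had an unadjusted p of 0.00335 and did not pass the adjustment over all genes (adjusted p = 0.437). Its r with CCR3 was 0.393 and with FCER1A -0.214 (permutation p = 0.110 and 0.327, adjusted p = 0.504 and 0.752). It was 0.530 and -0.272 without the 2 heifers farthest from the median of each receptor once group means were taken out.

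Of 28 genes of the IgE receptor and its signalling, 6 had a symbol and all 6 were tested: FCER1A, the adaptor GRB2, the protein kinases C PRKCB and PRKCD, and the calcium release channels ITPR1 and ITPR2. For breed, 0 of the 6 passed an adjusted p of 0.05 and 2 had an unadjusted p under 0.05 in edgeR, beside 10.6% of all genes. PRKCB was at 212 ± 10.4 CPM in Holstein (SD, n = 10) and 201 ± 13.2 CPM in Angus heifers (SD, n = 12), a log2 fold change of 0.08 (SE 0.0385, edgeR adjusted p = 0.458). ITPR2 was at 172 ± 14.4 CPM in Holstein and 159 ± 16.2 CPM in Angus heifers, a log2 fold change of 0.12 (SE 0.0566, edgeR adjusted p = 0.450). These genes are used by many leukocytes, and their summed abundance without FCER1A was 896 to 1108 CPM in Angus Fertile, 952 to 1087 CPM in Angus Sub-Fertile, 944 to 1061 CPM in Holstein Fertile and 1033 to 1245 CPM in Holstein Sub-Fertile heifers.

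PRKCD, a kinase of many receptor pathways in leukocytes, had correlations of opposite sign with the receptors. Its r with CCR3 was -0.448 (rho -0.552, permutation p = 0.0591 and 0.0160) and with FCER1A 0.425 (rho 0.554, permutation p = 0.0647 and 0.0171). None of these passed adjustment over the 23 relations (adjusted p = 0.504 for each r and 0.197 for each rho). Without heifers 5 and 18 the r with CCR3 was -0.231, and without heifers 6 and 9 the r with FCER1A was 0.433. PRKCD averaged 228 ± 21.9 CPM in Holstein Sub-Fertile and 187 ± 18.5 CPM in Holstein Fertile heifers (SD, n = 5 each). In Angus it averaged 204 ± 23.3 CPM in Sub-Fertile (SD, n = 7) and 207 ± 25.3 CPM in Fertile heifers (SD, n = 5). PRKCD was named through the difference between phenotypes, so nothing is read from these means by phenotype. Its interaction of breed and fertility was -0.31 (SE 0.136, edgeR unadjusted p = 0.0327, adjusted p = 0.463).

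Among other chemokine receptors only CCR8, and among other Fc receptors only FCAR, had a symbol. CCR8, a receptor of type 2 helper and regulatory T cells, ranged from 7.22 to 22.7 CPM over all heifers, with a breed log2 fold change of 0.01 (SE 0.198). FCAR, the receptor for immunoglobulin A on myeloid cells, ranged from 1.04 to 11.8 CPM, with a breed log2 fold change of -0.16 (SE 0.359). Its phenotype log2 fold change was -0.55 (SE 0.361), which is again a value that the choice of named genes used. The sign differed by breed, with 0.16 (SE 0.429) in Angus and -1.46 (SE 0.484) in Holstein heifers. The interaction of breed and fertility was -1.62 (SE 0.642, edgeR unadjusted p = 0.020, adjusted p = 0.463).

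Over all the lists of cell markers and pathway genes, 17 of 187 genes other than CCR3 and FCER1A had a symbol and were tested. For breed 0 of 17 passed an adjusted p of 0.05 in edgeR, and 4 had an unadjusted p under 0.05: PTGDR2, PRKCB, ITPR2 and the B cell adaptor BANK1, at a log2 fold change of 0.25 (SE 0.0989). Over all genes 10.6% had such a p, and with 17 genes nothing is read from the difference. The median breed log2 fold change of the 17 genes was 0.02, beside -0.01 over all genes tested. For phenotype 0 of 17 passed the adjusted and 4 the unadjusted threshold, where edgeR called 0% and 2.62% of all genes and DESeq2 0% and 3.91%. That count is set by the choice of named genes and nothing is read from it.

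Markers of more abundant cells varied between heifers beside the receptors. The summed abundance of the 3 named neutrophil markers (of 10) was 241 to 390 CPM in Angus Fertile, 229 to 527 CPM in Angus Sub-Fertile, 118 to 352 CPM in Holstein Fertile and 261 to 650 CPM in Holstein Sub-Fertile heifers. Its r with CCR3 was -0.00954 and with FCER1A 0.213 (permutation p = 0.967 and 0.394, adjusted p = 0.967 and 0.815), and without heifers 5 and 18, or 6 and 9, it was -0.00461 and 0.0806. For the 2 named platelet markers (of 7), r with CCR3 was 0.406 and with FCER1A -0.103 (permutation p = 0.0889 and 0.706, adjusted p = 0.504 and 0.929), and 0.377 and 0.231 without those heifers. The B cell marker BANK1 had r of -0.247 and 0.219, and CD163L1, the only gene of the T cell list with a symbol, 0.122 and 0.0773 (adjusted p from 0.738 to 0.929). BANK1 and CD163L1 are single genes and do not measure all B or T cells. The part of all these markers in the levels of the receptors was not tested further.

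The transcripts most like each receptor were sought among 10744 genes with a mean of at least 5 CPM, of which 1124 had a symbol, by Pearson's r over the 22 heifers with group means taken out. For CCR3 the 10 named genes of highest r were NCAPD3 (0.780), SOCS2 (0.764), COQ3 (0.703), GINS4 (0.700), PPIH (0.692), SUV39H1 (0.681), PSMD13 (0.676), KIF24 (0.674), TCP1 (0.667) and PRIM2 (0.654). NCAPD3 is a condensin subunit of mitotic chromosomes, GINS4 belongs to the replicative helicase, PRIM2 is a primase subunit and SOCS2 is an inhibitor of cytokine signalling. For FCER1A they were VASH1 (0.753), HES1 (0.741), GRK5 (0.717), CHST3 (0.697), GSDMA (0.694), ADAT1 (0.644), ZBTB40 (0.603), ZNF350 (0.595), ZBTB10 (0.578) and DCBLD2 (0.567). HES1 is a transcriptional repressor downstream of Notch, and GRK5 is a kinase of G protein-coupled receptors. Over all 10744 genes, named or not, 2 had a higher r with CCR3 than NCAPD3 and 47 than PRIM2. With FCER1A, 0 had a higher r than VASH1 and 103 a higher r than DCBLD2.

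All 10 named genes most like CCR3 had a negative r with FCER1A, from -0.680 for GINS4 to -0.163 for COQ3. The 10 most like FCER1A likewise had a negative r with CCR3, from -0.538 for GRK5 to -0.0435 for DCBLD2. These signs are partly set by the r of -0.422 between the receptors over the same values, and nothing further is read from them. Among named genes the lowest r with FCER1A was -0.790, for the centromere protein CENPL, and the lowest with CCR3 was -0.621, for FCAR. Over all genes compared the lowest were -0.803 and -0.753. Over all 10744 genes, named or not, 3.19% had an r above 0.5 with CCR3 and 0.493% an r below -0.5. For FCER1A the shares were 2.66% and 3.02%. These r share the libraries, their depth and the close pairs, so they are descriptions over 22 heifers without a test.

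**Figure D5:**
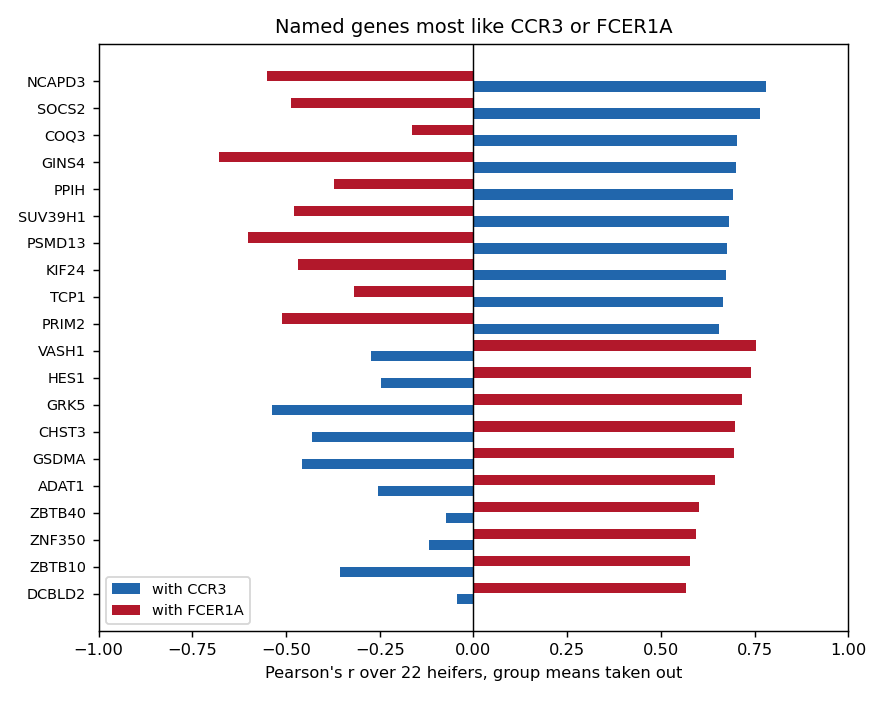
Pearson's r (horizontal axis) of 20 named genes with CCR3 (blue) and FCER1A (red) over 22 heifers with group means taken out; the first 10 genes are those most like CCR3 and the last 10 those most like FCER1A. The bars of each gene point in opposite directions, from 0.780 and -0.552 for NCAPD3 to -0.0435 and 0.567 for DCBLD2, which the negative r between the receptors partly sets.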

How the data were processed

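The deposited values are raw counts of fragments per Ensembl gene. The authors aligned reads to ARS-UCD1.2 with HISAT2, filtered them with SAMtools, removed duplicates with biobambam2 and counted with featureCounts; per the labels no versions are given, and the sources used here do not state a strand setting, which leaves counts of overlapping genes uncertain. Of 27607 genes, 4389 had a count in no heifer. Groups came from the sample labels. CPM was the count scaled by the total counts of the heifer. The 13526 genes whose CPM, scaled by TMM, exceeded 1 in 5 or more heifers were tested with edgeR 4.0.16 in R 4.3.3 (robust quasi-likelihood, terms for breed and fertility, total counts as library sizes, Benjamini-Hochberg adjustment). DESeq2 1.42.0 was an alternative. Each heifer is a separate animal. The fit was also run on simulated counts of independent libraries without close pairs, and nothing is read from that run here.

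Symbols and positions came from the study's annotation table, of which 1401 rows, those of smallest p for fertility, were at hand. That table also holds the authors' fold changes and p-values, which were not used. Correlations used log2(CPM + 0.5) and 100000 resamples within groups, two-sided (scipy 1.17.1, numpy 2.4.6, Python 3.11.15). A close pair is 2 heifers nearest to each other, with a coefficient of variation under 0.5 of the median pairing, over genes with a CPM above 20. The genes named are both receptors, members of the marker and IgE lists, up to 4 genes of smallest breed p in every other list, neighbours in the receptor families, and the 10 named genes of highest r with each receptor; CENPL was named after its values were seen. Receptors and lists were chosen with earlier results of these data known.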

Additional observations from a re-analysis of the deposited data

Results flagged for a closer look

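Over 80 sets of 5 or 7 heifers of a group (19 genes and the ratio of CCR3 to FCER1A counts, in 4 groups), 4 held a heifer far from the others by Dixon's test at 95%, which is 5.00%; chance gives about 1 in 20. None concerned CCR3 or FCER1A. PRKCB was at 233 CPM in heifer 17 of the Angus Sub-Fertile group and at 229 CPM in heifer 9 of the Holstein Fertile group. PTGDR2 was at 28.4 CPM in heifer 10 of the Holstein Fertile group, which was also the highest of that group for CCR3. The neutrophil transglutaminase TGM3 was at 115 CPM in heifer 16 of the Angus Sub-Fertile group.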

How the results depend on the processing

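The breed difference of CCR3 (log2 -0.07) and FCER1A (0.01) kept its side of the threshold in all 33 alternatives each, with the lowest adjusted p at 0.716 and 0.774. Its sign was not stable: with close pairs as blocks it was 0.0244 and -0.16, and in Fertile heifers alone 0.0586 and -0.18. Leaving out each heifer in turn gave -0.157 to 0.00464 for CCR3, turning without heifers 1 or 18, and -0.0963 to 0.0777 for FCER1A, turning without heifers 1, 3, 6, 13, 15, 18 or 22. With each heifer left out, the phenotype difference ran from 0.236 (without heifer 18) to 0.401 for CCR3 and from -0.360 to -0.195 (without heifer 3) for FCER1A, and over the other alternatives from -0.0410 to 0.459 and from -0.470 to 0.0760, with the turned signs in the fit with close pairs as blocks. With each heifer left out, the interaction ran from 0.0747 (without heifer 10) to 0.443 for CCR3 and from -0.530 to -0.157 for FCER1A, and that of FCER1A was 0.19 with close pairs as blocks and 0.0366 in the same 16 heifers without blocks. Its adjusted p stayed above 0.05 in all 31 alternatives for each receptor.

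The correlation of CCR3 and FCER1A (r = -0.422) came to an unadjusted permutation p under 0.05 with Spearman's rho (-0.519), with TMM-scaled library sizes (-0.469, p = 0.0473) and with group means kept (-0.518, p = 0.0139). With group means kept, r also holds the phenotype differences through which both genes were named, so nothing is read from it. With group means taken out, leaving out each heifer gave -0.509 (without heifer 17, p = 0.0384) to -0.344 (without heifer 18), and -0.497 without heifer 22 (permutation p = 0.0415). Calls among the list genes were 0 in all alternatives. The cause of these changes was not tested. Fits without heifers 10 and 18, with the 16 heifers of close pairs without blocks, and with CPM from total counts in the filter (13535 genes), were chosen after seeing the data. Replicate labels link no animals of different groups, so pairs came from the counts alone. Depth set a median counting SD of 0.0472 (CCR3) and 0.0955 (FCER1A) on the log2 scale, below the spread between heifers.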
